A study of Homo sapiens with 18 samples.

Results

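The genes described here code for the core of the RAS, RAF, MEK and ERK cascade: the RAS GTPases HRAS and NRAS, the RAF kinases ARAF and BRAF, the MEK kinases MAP2K1 and MAP2K2, and the ERK kinase MAPK3. They were chosen by gene name from a table of mRNA sequencing counts and make up 7 of its 19901 genes. All 7 had enough reads to be tested. The libraries came from 3 established lines of head and neck squamous cell carcinoma: Detroit 562, grown from a metastasis of a pharyngeal tumor, FaDu, from a hypopharyngeal tumor, and SCC-9, from a tumor of the tongue. Each line comes from 1 tumor, so a difference between lines is one between these 3 cultures only. By the study's methods, Detroit 562 and FaDu were grown in the same medium, and SCC-9 in another that held hydrocortisone. A difference between SCC-9 and the other lines therefore cannot be told apart from one between media. In each line, cells were either left untreated, which gave 3 control libraries, or given 50 ng/mL hepatocyte growth factor (HGF), which gave 3 HGF libraries, 18 libraries in all. The labels of single samples and the study's methods for mRNA sequencing give 16 h of treatment, whereas the series record gives 48 h. The study asked how HGF changes glucose metabolism in these lines, and the comparison made here is whether HGF changed the mRNA of the cascade that lies below its receptor.

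HGF binds the receptor tyrosine kinase MET, which recruits adaptor proteins and exchange factors that load RAS with GTP. RAS bound to GTP brings RAF kinases to the membrane, RAF phosphorylates MEK, and MEK phosphorylates ERK, which enters the nucleus and acts on transcription factors. Signaling through this cascade is controlled mainly by GTP loading and phosphorylation, which counts of mRNA do not measure.

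Of the 7 genes, MAP2K1 rose and MAPK3 fell with HGF in Detroit 562, and none passed the same test in FaDu or SCC-9. MAP2K1 was also higher in every HGF library of SCC-9 than in any control library, with a log2 fold change of 0.37. There it missed both the threshold for the adjusted p and the minimum log2 fold change of 0.4. In a model with a block for the replicate number, MAP2K1 in SCC-9 and NRAS and MAPK3 in FaDu missed only the minimum. In Detroit 562, HRAS missed only the minimum with and without the block, and NRAS and ARAF did so with it. Relative to its paralog MAP2K2, MAP2K1 was higher in the HGF libraries of all 3 lines, with no overlap between treated and untreated libraries in any of them. In contrast, the levels of HRAS, NRAS, ARAF, BRAF, MAP2K2 and MAPK3 varied mostly between the lines.

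A difference in response between MAP2K1 and MAP2K2, whose products carry out the same step, was not established. Their ratio gave an exact permutation p of 0.1 in each line, the smallest that 3 libraries against 3 allow. This p was 0.3 after adjustment over 9 ratios. The sequences just before the start of these MEK genes were chosen because MAP2K1 passed the test in Detroit 562 and MAP2K2 did not. They are the stretches of the RefSeq promoter windows (GRCh38.p14) that lie before both the RefSeq and the GENCODE start, 155 bases at chr15:66386662-66386816 on the plus strand for MAP2K1 and 243 bases at chr19:4124130-4124372 on the minus strand for MAP2K2. Capitals mark GGGCGG, the GC box bound by SP1, or its reverse complement CCGCCC.
MAP2K1: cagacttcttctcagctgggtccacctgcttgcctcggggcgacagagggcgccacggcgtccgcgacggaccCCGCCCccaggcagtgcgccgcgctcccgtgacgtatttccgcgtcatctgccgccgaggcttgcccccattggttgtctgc
MAP2K2: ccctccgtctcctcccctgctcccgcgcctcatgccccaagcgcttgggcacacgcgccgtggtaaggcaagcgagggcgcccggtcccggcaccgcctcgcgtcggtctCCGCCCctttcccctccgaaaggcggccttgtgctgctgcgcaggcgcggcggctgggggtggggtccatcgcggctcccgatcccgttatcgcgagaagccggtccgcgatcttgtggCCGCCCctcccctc
Both stretches were rich in GC, with 69.7% for MAP2K1 and 73.7% for MAP2K2. In the whole windows at these starts, from 250 bases before to 50 bases after the RefSeq start, GGGCGG was found 3 times for MAP2K1 and 2 times for MAP2K2 on either strand, and 45.0% of 35116 such windows in the genome hold it. Neither window held the ETS motif CCGGAAG, found in 10.3% of windows, the AP-1 motif TGANTCA (7.71%), the CRE motif TGACGTCA (1.85%) or the E-box CACGTG (7.26%), each searched on both strands.

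In the annotation of the count table (GRCh38, GENCODE 28), HRAS (ENSG00000174775.16) lies at chr11:532242-537287 on the minus strand, NRAS (ENSG00000213281.4) at chr1:114704469-114716894 on the minus strand, ARAF (ENSG00000078061.12) at chrX:47561100-47571920 on the plus strand and BRAF (ENSG00000157764.13) at chr7:140719327-140924928 on the minus strand. MAP2K1 (ENSG00000169032.9) lies at chr15:66386817-66492312 on the plus strand, MAP2K2 (ENSG00000126934.13) at chr19:4090321-4124129 on the minus strand and MAPK3 (ENSG00000102882.11) at chr16:30114105-30123506 on the minus strand. All 7 are protein-coding. None overlaps another gene of the table on its own strand. BRAF, MAP2K1 and ARAF overlap NDUFB2, SNAPC5 and SYN1 on the opposite strand, and the authors' counting used strand. ARAF, BRAF and MAP2K1 have annotated pseudogenes, and how reads that match both were counted is not given in the sources used here.

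The sum of counts over genes lay between 35304770 and 44003970 in a library, and a single gene of the cascade had between 553 counts (BRAF) and 8141 counts (NRAS) in a library. Levels are given below as CPM, the counts of a gene scaled to a common library size by the TMM method. For the marker genes of this paragraph only, CPM was scaled to the total count of the library, without TMM. The lines carried epithelial markers in every library: the lowest value was 192.9 CPM for CDH1, 74.2 CPM for EPCAM and 552 CPM for KRT5. KRT14, a basal keratin, ranged from 0.811 to 3551 CPM. Markers of other cell types were at 0 to 3 counts for the leukocyte gene PTPRC and the muscle gene DES and at 1 to 21 counts for the endothelial gene PECAM1. The fibroblast gene COL1A1 was at 140 to 3646 counts, or 3.39 to 91.1 CPM, so its highest value was above the lowest of EPCAM. The control libraries of a line serve both its HGF comparison and the comparisons of untreated lines, so these share samples. In bulk libraries, a change in which cells were present and a change in mRNA per cell cannot be told apart. The replicates carry numbers in the labels. The study's methods state that the experiment was repeated, without saying how the repeats match the numbers. The p-values measure the spread between these libraries.

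**Figure D1:**
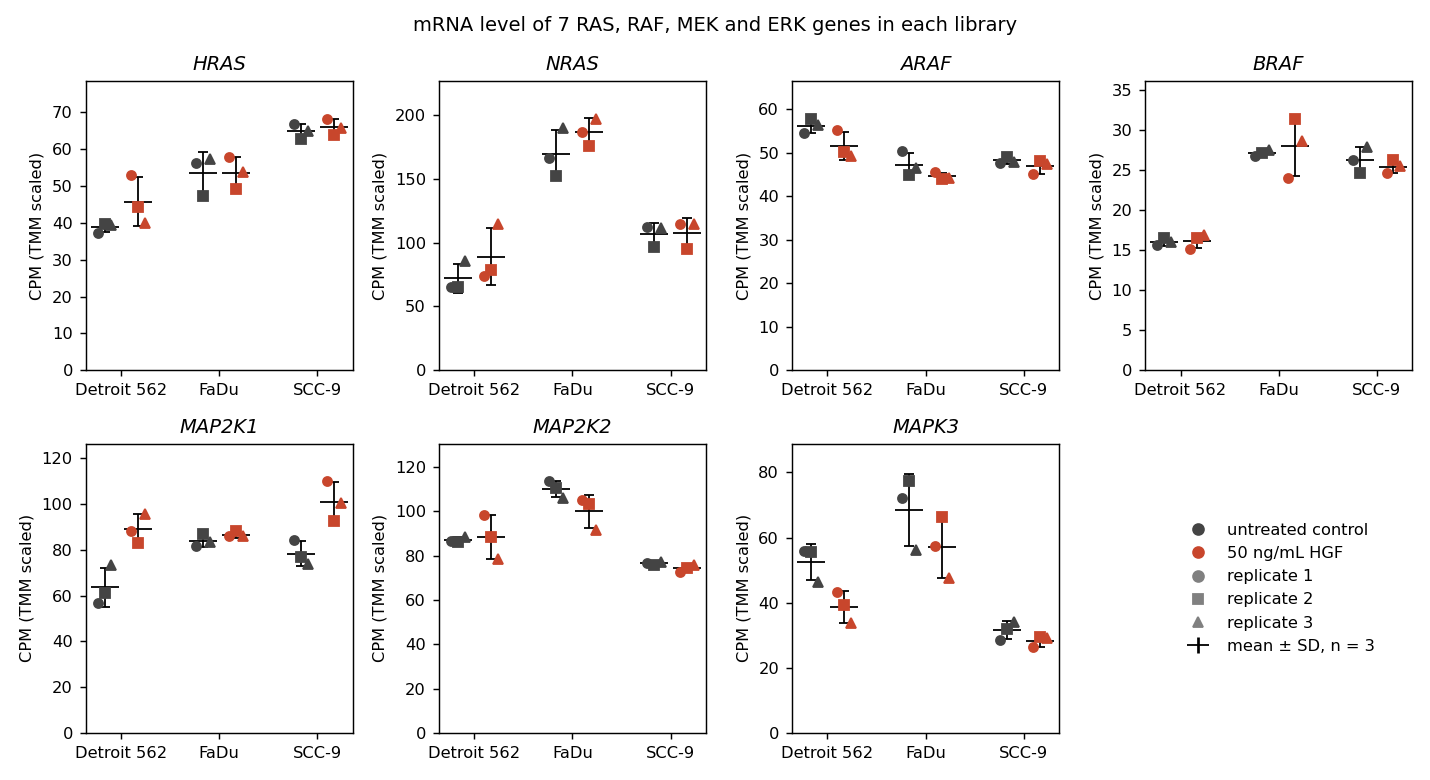
Level of each gene (vertical axis, CPM after TMM scaling, from 0) in every library of the 3 lines (horizontal axis), with control libraries in grey and HGF libraries in red. Symbols give the replicate number and bars the mean ± SD of 3 libraries. In Detroit 562, MAP2K1 lay at 56.6 to 73.2 CPM in controls and 82.9 to 95.8 CPM with HGF, and MAPK3 at 46.2 to 55.8 and 33.7 to 43.4 CPM.

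HRAS and NRAS code for small GTPases that pass the signal from the receptor complex to RAF. HRAS was at 37.4, 39.6 and 39.5 CPM in the control libraries of Detroit 562 and at 53.0, 44.3 and 39.9 CPM in the HGF libraries, in the order of replicates 1 to 3. The HGF libraries were all above the controls, but replicate 3 by only a small margin. The log2 fold change was 0.24 (SE 0.0952), with an adjusted p of 0.0778 (edgeR's quasi-likelihood test, Benjamini-Hochberg method, 15475 genes), called the edgeR adjusted p below. This is under the minimum log2 fold change of 0.4, which with an adjusted p below 0.1 defines a called gene here, so HRAS was not called. With the replicate block, the edgeR adjusted p was 0.0161 at a log2 fold change of 0.23, still under the minimum.

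In FaDu, HRAS was at 56.3, 47.2 and 57.2 CPM in controls and at 57.8, 49.2 and 53.7 CPM with HGF. In SCC-9, it was at 66.8, 62.7 and 65.0 CPM in controls and at 68.2, 63.9 and 65.6 CPM with HGF. The groups overlapped in both lines, and the 95% intervals of the log2 fold change ran from -0.20 to 0.20 in FaDu and from -0.17 to 0.22 in SCC-9.

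NRAS had the widest range of the 7 genes between lines. In Detroit 562, it was at 65.5, 64.8 and 85.2 CPM in controls and at 73.7, 78.4 and 115 CPM with HGF. Each HGF library was above the control of its number, while the groups overlapped, since control replicate 3 was above HGF replicates 1 and 2. The log2 fold change was 0.31 (SE 0.148, edgeR adjusted p 0.139), and NRAS was not called. With the replicate block, the log2 fold change was 0.29 (SE 0.0516, edgeR adjusted p 0.000342), so NRAS then missed only the minimum.

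The FaDu libraries held NRAS at 166, 152 and 189 CPM in controls and at 187, 176 and 197 CPM with HGF. The SCC-9 libraries held it at 112, 96.4 and 111 CPM in controls and at 114, 94.5 and 115 CPM with HGF. Replicate 2 was the lowest library of its group in 5 of 6 groups and replicate 3 lay above the group mean in 6 of 6, so the spread of NRAS went with the replicate number. The log2 fold changes were 0.14 in FaDu (SE 0.147) and 0.02 in SCC-9 (SE 0.147), and neither was called. In FaDu, each HGF library was above the control of its number, by 0.17, 0.21 and 0.06 on the log2 scale, and in the blocked model the edgeR adjusted p was 0.0772 at a log2 fold change of 0.14 (SE 0.0496), under the minimum, with a range of 0.0772 to 0.986 over 14 alternatives.

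ARAF and BRAF code for serine/threonine kinases that RAS activates, of which BRAF has the higher basal kinase activity. ARAF was at 54.6, 57.9 and 56.4 CPM in controls of Detroit 562 and at 55.2, 50.2 and 49.2 CPM with HGF. HGF replicates 2 and 3 were below all controls and replicate 1 was not. The log2 fold change was -0.13 (SE 0.0598, edgeR adjusted p 0.129). With the replicate block, it was -0.13 (SE 0.0521, edgeR adjusted p 0.0587), short of the minimum only. In FaDu, the mean was 47.3 ± 2.77 CPM in controls and 44.6 ± 0.809 CPM with HGF (SD, n = 3), and in SCC-9 it was 48.3 ± 0.783 and 46.9 ± 1.63 CPM. ARAF was the gene with the smallest range over all libraries, from 44.1 to 57.9 CPM.

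BRAF was at 15.6, 16.6 and 16.0 CPM in controls of Detroit 562 and at 15.2, 16.6 and 16.8 CPM with HGF. These groups overlapped, and the 95% interval of the log2 fold change ran from -0.17 to 0.20. In FaDu, the mean was 27.1 ± 0.367 CPM in controls and 28.01 ± 3.77 CPM with HGF, and in SCC-9 it was 26.2 ± 1.61 and 25.4 ± 0.827 CPM. The wider spread with HGF in FaDu came from replicate 1 at 23.95 and replicate 2 at 31.4 CPM. No RAF gene was called with HGF in any line.

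MAP2K1 and MAP2K2 code for MEK1 and MEK2, the dual-specificity kinases that phosphorylate ERK. MAP2K1 was at 56.6, 60.9 and 73.2 CPM in controls of Detroit 562 and at 88.3, 82.9 and 95.8 CPM with HGF. All HGF libraries were above all controls. MAP2K1 rose by a log2 fold change of 0.49 (SE 0.0891, edgeR adjusted p 0.00218). Its edgeR and DESeq2 adjusted p stayed between 4.32e-06 and 0.0264 over 14 alternatives in the processing, with a log2 fold change between 0.41 and 0.60.

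The FaDu libraries held MAP2K1 at 81.6, 86.6 and 83.5 CPM in controls and at 85.9, 88.0 and 85.8 CPM with HGF. The groups overlapped, with a log2 fold change of 0.05 and a 95% interval from -0.14 to 0.23. In SCC-9, MAP2K1 was at 84.2, 76.7 and 74.0 CPM in controls and at 109.8, 92.7 and 100.5 CPM with HGF. All HGF libraries were above all controls here as well. The log2 fold change was 0.37 (SE 0.0887, 95% interval 0.18 to 0.55), with an unadjusted p of 0.000738 and an edgeR adjusted p of 0.568, so MAP2K1 was not called in SCC-9. In the model with a block for the replicate number, the edgeR adjusted p was 0.00196 at a log2 fold change of 0.37, still under the minimum of 0.4, and over all 14 alternatives it ranged from 0.00196 to 1.0.

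MAP2K2 was at 86.7, 86.3 and 88.5 CPM in controls of Detroit 562 and at 98.2, 88.1 and 78.3 CPM with HGF. The HGF libraries lay on both sides of the controls, and the log2 fold change was 0.02 (95% interval -0.14 to 0.17). The FaDu libraries held it at 113, 110.5 and 106 CPM in controls and at 105, 103 and 91.5 CPM with HGF. The SCC-9 libraries held it at 76.6, 75.9 and 77.0 CPM in controls and at 72.7, 74.3 and 75.6 CPM with HGF. In FaDu and SCC-9, every HGF library of MAP2K2 was below every control, with log2 fold changes of -0.14 (SE 0.0724, edgeR adjusted p 0.640) and -0.04 (SE 0.0727, edgeR adjusted p 1) that were not called.

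MAPK3 codes for ERK1, a kinase at the end of the cascade that acts on cytoplasmic and nuclear substrates. It was at 55.8, 55.5 and 46.2 CPM in controls of Detroit 562 and at 43.4, 39.3 and 33.7 CPM with HGF. All HGF libraries were below all controls. MAPK3 fell by 0.44 on the log2 scale (SE 0.134, edgeR adjusted p 0.0266). Without control replicate 1, control replicate 2 or HGF replicate 3, it was no longer called, with log2 fold changes of -0.39, -0.39 and -0.34 and edgeR adjusted p of 0.112, 0.0968 and 0.118, and the edgeR and DESeq2 adjusted p ranged from 6.25e-06 to 0.118 over 14 alternatives.

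The FaDu libraries held MAPK3 at 72.0, 77.2 and 56.0 CPM in controls and at 57.3, 66.4 and 47.6 CPM with HGF. The SCC-9 libraries held it at 28.7, 31.9 and 34.1 CPM in controls and at 26.3, 29.4 and 29.0 CPM with HGF. The groups overlapped in both lines, but each HGF library was below the control of its number. The log2 fold change was -0.26 in FaDu (SE 0.133, edgeR adjusted p 0.628) and -0.16 in SCC-9 (SE 0.135, edgeR adjusted p 1), and neither was called. With the replicate block, the edgeR adjusted p was 0.00269 in FaDu at a log2 fold change of -0.26, under the minimum, and over 14 alternatives it ranged from 0.00269 to 0.980.

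Thus, 2 of the 7 genes were called with HGF in Detroit 562, where 17.9% of all tested genes were called. By direction, 1 of 7 rose, against 6.16% of all tested genes, and 1 of 7 fell, against 11.7%. In FaDu, 0 of 7 were called by edgeR and by DESeq2, and edgeR called 0.0258% of all tested genes, or 4 genes. In edgeR's model without a block, 0 of 7 had an unadjusted p below 0.05, beside 1247 of all 15475 tested genes. DESeq2 called 66 genes of the table in FaDu with its prior and 64 without, and edgeR called 0 to 74 when single FaDu libraries were left out, with 0 without control replicate 1 and 74 without control replicate 3. In the blocked model of FaDu, 3 of 7 had an unadjusted p below 0.05, as had 4022 of all 15475 tested genes, and again 0 of 7 were called, against 5.6% of all tested genes. In SCC-9, 0 of 7 were called by edgeR and by DESeq2. In edgeR's model without a block, 1 of 7 (MAP2K1) had an unadjusted p below 0.05, beside 641 of all 15475 tested genes. There, edgeR called 0% of all tested genes, while DESeq2 called 19 genes of the table with its prior and 17 without. The median log2 fold change of the 7 genes was 0.02 in Detroit 562 and -0.04 in SCC-9, beside -0.01 and 0.00 for all tested genes, and 0.00 for both in FaDu.

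Non-overlapping groups were more frequent than calls, both for the cascade and in the background. In Detroit 562, 3 of the 7 genes (HRAS, MAP2K1 and MAPK3) had groups that did not overlap, as had 38.2% of all tested genes. In FaDu it was 1 of 7 (MAP2K2) against 9.41%, and in SCC-9 it was 2 of 7 (MAP2K1 and MAP2K2) against 17.4%. These shares of so few genes do not separate the cascade from the rest of the table.

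**Figure D2:**
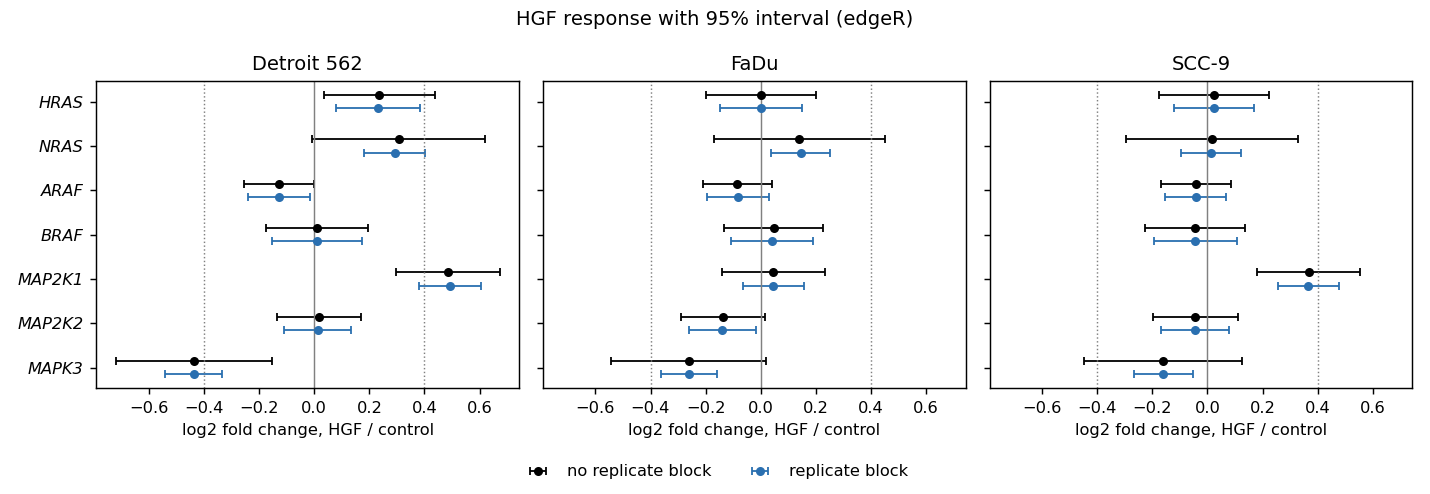
Log2 fold change of HGF over control (horizontal axis) with its 95% interval for each gene in the 3 lines. Black points are from the model without a replicate block and blue points from the model with it, and dotted lines mark the minimum of 0.4 for a call. In Detroit 562, MAP2K1 at 0.49 and MAPK3 at -0.44 lie beyond these lines, and in SCC-9 MAP2K1 lies at 0.37.

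Libraries of the same replicate number were compared as pairs, since they deviated from their group means together, though the labels state no pairing. For MAP2K1, the log2 difference between HGF and control was 0.64, 0.44 and 0.39 in the pairs of Detroit 562. It was 0.07, 0.02 and 0.04 in the FaDu pairs and 0.38, 0.27 and 0.44 in the SCC-9 pairs. It was thus positive in 9 of 9 pairs, while all FaDu pairs were below all pairs of the other lines. For MAPK3, the log2 difference was -0.36, -0.50 and -0.46 in the pairs of Detroit 562. It was -0.33, -0.22 and -0.24 in the FaDu pairs and -0.13, -0.12 and -0.23 in the SCC-9 pairs. It was negative in 9 of 9 pairs, with the pairs of Detroit 562 below those of the other lines. In all, 4 of 7 genes moved the same way in all 3 pairs of Detroit 562, and 5 of 7 did so in each of the other lines, beside 62.8%, 43.3% and 48.5% of all tested genes.

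**Figure D3:**
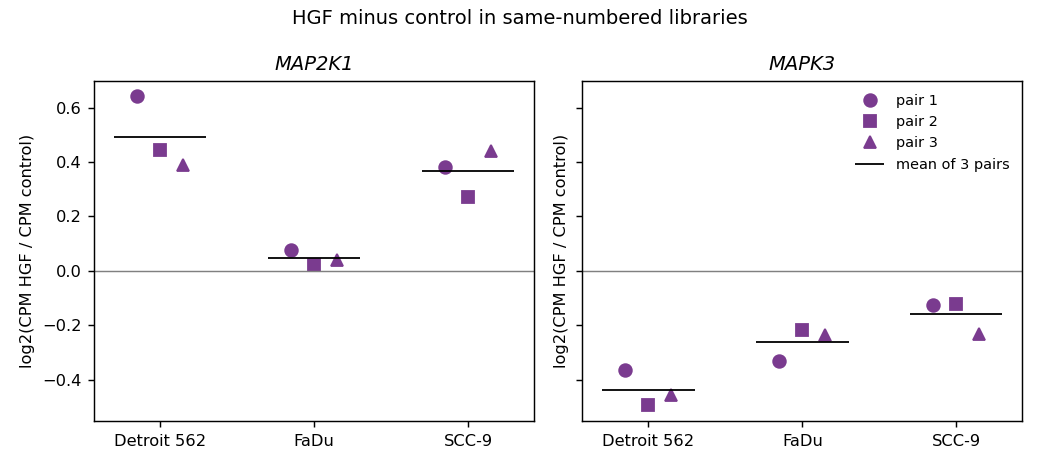
Log2 difference between HGF and control CPM (vertical axis) in each pair of same-numbered libraries for MAP2K1 and MAPK3 in the 3 lines, with lines at the mean of 3 pairs. All 9 points of MAP2K1 lie above 0 and all 9 of MAPK3 below 0, and the FaDu points of MAP2K1, at 0.02 to 0.07, lie lowest.

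Whether the response to HGF differed between lines was tested as an interaction at an adjusted p below 0.1. Without a replicate block, 0 of 7 genes differed between Detroit 562 and FaDu by edgeR, with 0.239% of all tested genes called. There, 1 of 7 had an unadjusted p below 0.05 in edgeR, beside 1788 of all 15475 tested genes. DESeq2 called 1 of 7 in this comparison, MAP2K1, and called 270.0 genes of the 19901 with its prior and 261 without. Between Detroit 562 and SCC-9 it was 0 of 7 by edgeR and DESeq2, with 0.924% of all tested genes called by edgeR. DESeq2 called 649 genes of the table there with its prior and 648 without. In edgeR, 0 of 7 had an unadjusted p below 0.05, beside 2378 of all tested genes. Between FaDu and SCC-9 it was 0 of 7 by both, with 0% of all tested genes called by edgeR. DESeq2 called 5 genes of the table there with its prior and 3 without. In edgeR, 1 of 7 had an unadjusted p below 0.05, beside 337 of all tested genes.

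The blocked model changed these calls. The response of MAP2K1 was larger in Detroit 562 than in FaDu by 0.44 on the log2 scale (SE 0.126, edgeR adjusted p 0.207), and by 0.45 (SE 0.0740, edgeR adjusted p 0.00209) with the block, under which 19.1% of all tested genes were called. Between FaDu and SCC-9, the MAP2K1 response differed by -0.32 (SE 0.125, edgeR adjusted p 1.00), and by -0.32 (SE 0.0734, edgeR adjusted p 0.0647) with the block, where 1.32% of all tested genes were called. Between Detroit 562 and SCC-9, MAP2K1 differed by 0.12 with a 95% interval from -0.15 to 0.38, and it was not called with the block either (edgeR adjusted p 0.261).

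The other genes with such a change were NRAS and MAPK3. With the block, the NRAS response was larger in Detroit 562 than in SCC-9 by 0.28 (SE 0.0721, edgeR adjusted p 0.0155), and without it by 0.29 (SE 0.209, edgeR adjusted p 0.529). The MAPK3 response differed between the same lines by -0.28 with the block (SE 0.0703, edgeR adjusted p 0.0136), so MAPK3 was lowered more in Detroit 562, and without the block by -0.27 (SE 0.191, edgeR adjusted p 0.510). With the block, 26.9% of all tested genes were called in this comparison. The difference between Detroit 562 and FaDu in the MAPK3 response was -0.18 with the block and was not called (edgeR adjusted p 0.105).

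A ratio of paralogs within a library does not depend on how libraries are scaled to each other. The ratio of MAP2K1 to MAP2K2 counts was 0.654, 0.706 and 0.827 in controls of Detroit 562 and 0.899, 0.941 and 1.22 with HGF. In FaDu, it was 0.719, 0.784 and 0.787 in controls and 0.816, 0.852 and 0.938 with HGF. In SCC-9, it was 1.099, 1.01 and 0.960 in controls and 1.51, 1.25 and 1.33 with HGF. In all 3 lines, the highest control was below the lowest HGF library, and the ratio was higher with HGF in 3 of 3 pairs.

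On the log2 scale, the MAP2K1 to MAP2K2 ratio was higher with HGF by 0.48 in Detroit 562, 0.41 in SCC-9 and 0.18 in FaDu. The two-sided exact permutation test gave a p of 0.1 in each line, the smallest it can give with 3 libraries against 3, and 0.3 after adjustment over 9 ratios. In FaDu, where neither MEK gene was called, the ratio moved with a MAP2K1 log2 fold change of 0.05 and a MAP2K2 log2 fold change of -0.14.

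The ratio of HRAS to NRAS overlapped between control and HGF libraries in all lines, with log2 differences of -0.14 (FaDu), -0.06 (Detroit 562) and 0.01 (SCC-9) and exact permutation p of 0.2, 0.8 and 0.9. In FaDu, it was lower with HGF in 3 of 3 pairs, with log2 differences of -0.15 to -0.13 and a paired exact permutation p of 0.25, the smallest that 3 pairs allow. In Detroit 562, it spread from 0.719 in HGF replicate 1 to 0.347 in HGF replicate 3. The ratio of ARAF to BRAF overlapped as well, with log2 differences of -0.14 (Detroit 562, exact permutation p 0.4), -0.12 (FaDu, p 0.5) and 0.00 (SCC-9, p 1). ARAF to BRAF stood at 3.51 in controls of Detroit 562, beside 1.74 in FaDu and 1.84 in SCC-9, as geometric means of 3 libraries.

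**Figure D4:**
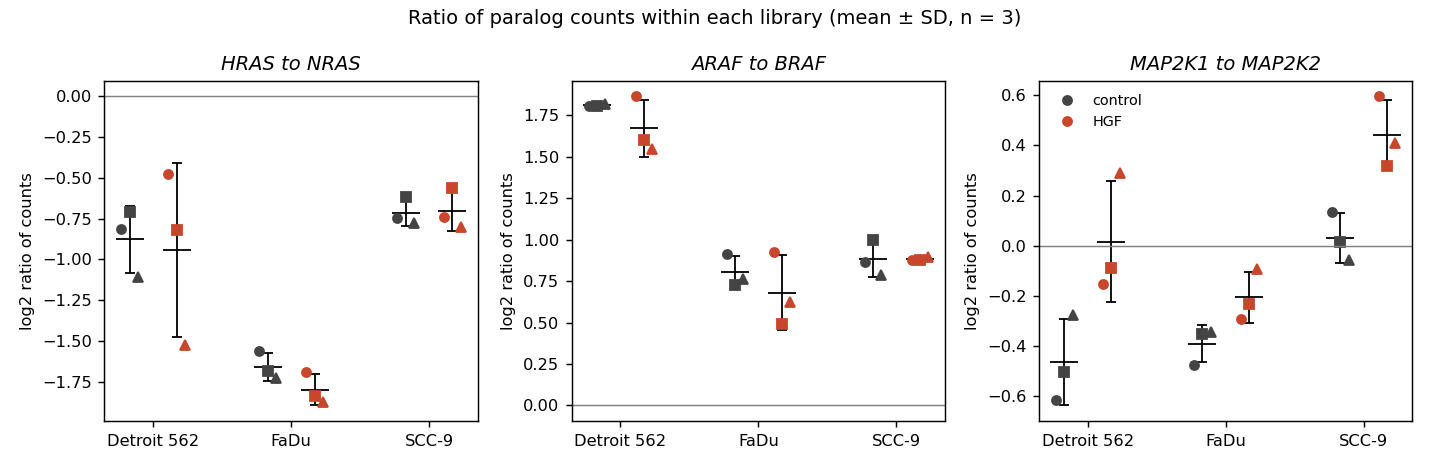
Log2 ratio of counts of paralogs within each library (vertical axis) for HRAS to NRAS, ARAF to BRAF and MAP2K1 to MAP2K2, with control libraries in grey, HGF libraries in red and the mean ± SD of 3. Only the MAP2K1 to MAP2K2 panel has HGF libraries above all controls in each of the 3 lines.

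For most of the genes, untreated lines differed by more than HGF and control did within a line. Between untreated Detroit 562 and FaDu, 4 of 7 genes were called, all lower in Detroit 562, where 61% of all tested genes were called and 29.8% were lower. NRAS had a log2 fold change of -1.24 (SE 0.149, edgeR adjusted p 1.14e-06), at 71.9 ± 11.5 against 169 ± 18.9 CPM. BRAF had a log2 fold change of -0.76 (SE 0.0866, edgeR adjusted p 5.94e-07), at 16.1 ± 0.485 against 27.1 ± 0.367 CPM. HRAS had a log2 fold change of -0.46 (SE 0.0950, edgeR adjusted p 0.000322). MAP2K1, at -0.40 (SE 0.0890, edgeR adjusted p 0.000681), lay at the minimum fold change. It lost its call when DESeq2's size factors or DESeq2 were used, when genes with low counts were kept, and without control replicate 1 (-0.32) or 2 (-0.37) of Detroit 562 or control replicate 2 of FaDu (-0.38). MAPK3, at -0.38 (SE 0.133, edgeR adjusted p 0.0166), was called with upper-quartile factors (-0.41) and without control replicate 1 (-0.43) or 2 (-0.42) of Detroit 562 or control replicate 3 of FaDu (-0.51).

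Between untreated Detroit 562 and SCC-9, 4 of 7 genes were called, where 65.4% of all tested genes were. MAPK3 was higher in Detroit 562 by a log2 fold change of 0.73 (SE 0.135, edgeR adjusted p 0.000103), at 52.5 ± 5.43 against 31.6 ± 2.73 CPM. HRAS, BRAF and NRAS were lower in Detroit 562, with log2 fold changes of -0.74, -0.71 and -0.57, where 33.9% of all tested genes were lower and 31.4% higher. MAP2K1, at -0.30, was called without control replicate 3 of Detroit 562 (-0.41). Between untreated FaDu and SCC-9, 3 of 7 were called, all higher in FaDu, where 64.2% of all tested genes were called and 30.7% were higher. The log2 fold change was 1.12 for MAPK3 (SE 0.135, edgeR adjusted p 1.06e-06), 0.67 for NRAS (SE 0.148, edgeR adjusted p 0.000613) and 0.52 for MAP2K2 (SE 0.0727, edgeR adjusted p 5.33e-06).

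The order of untreated lines therefore differed from gene to gene. HRAS was highest in SCC-9, then FaDu, then Detroit 562, and the libraries of neighbors in this order did not overlap. NRAS and MAPK3 were highest in FaDu, but NRAS was lowest in Detroit 562 and MAPK3 in SCC-9. MAP2K2 ran from FaDu through Detroit 562 to SCC-9 without overlap. ARAF was highest in Detroit 562, and BRAF and MAP2K1 lowest there, while FaDu and SCC-9 overlapped for these 3 genes, with 95% intervals of the log2 difference from -0.16 to 0.10, from -0.13 to 0.23 and from -0.09 to 0.29. All 7 genes had groups without overlap between Detroit 562 and FaDu and between Detroit 562 and SCC-9, and 4 of 7 between FaDu and SCC-9, beside 74%, 80.7% and 78.6% of all tested genes.

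With the squared deviations of log2 CPM over all 18 libraries split by source, the line accounted for 94.6% in BRAF, 86.7% in NRAS, 85.3% in MAP2K2, 83% in HRAS, 80.2% in MAPK3 and 68.7% in ARAF. MAP2K1 stood apart, with 21.4% between lines and 62.4% between treatments within a line. For the other genes, treatment accounted for 0.232% (BRAF) to 15% (ARAF). These shares describe the 18 libraries and carry no test.

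Levels of different genes can be compared only per length. The counts cover introns as well, so lengths of exons match them only in part. Divided by the length of all annotated exons of a gene (GENCODE 44), BRAF was lowest in all 6 groups, at 0.685 CPM per kb in untreated Detroit 562, 1.156 CPM per kb in FaDu and 1.12 CPM per kb in SCC-9. By this length, NRAS was highest in untreated FaDu, at 39.1 ± 4.36 CPM per kb, before HRAS at 22.03 ± 2.27. In untreated SCC-9, HRAS at 26.7 ± 0.844 and NRAS at 24.6 ± 2.04 CPM per kb lay close together. In untreated Detroit 562, NRAS at 16.6 ± 2.67, ARAF at 16.5 ± 0.480 and HRAS at 16.0 ± 0.525 CPM per kb did not differ beyond their spread. With the length of 1 canonical transcript per gene, chosen after the data were seen, BRAF was again lowest in all 6 groups, at 2.49 CPM per kb in untreated Detroit 562, but the order of the other genes changed. MAP2K2 was then the highest in untreated Detroit 562, at 50.5 CPM per kb, where HRAS at 36.3 ± 1.19, ARAF at 23.7 ± 0.688 and NRAS at 16.6 ± 2.67 CPM per kb stood apart. In untreated FaDu, MAP2K2 at 63.7 and HRAS at 50.1 CPM per kb were then above NRAS at 39.1, and in untreated SCC-9 HRAS at 60.6 CPM per kb was above NRAS at 24.6. The untreated levels were also computed with the length of the whole gene extent and with unscaled library totals. Over these alternatives and the canonical length, 43 levels moved by at least their SD and 20 did not. Another length rescales a level by construction, so this count says nothing about the order of genes. That the order depends on the length used is shown by the levels by exon and canonical length above.

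Other genes that act beside the cascade were counted by lists, whose calls in Detroit 562 stand beside 17.9% of all tested genes called, 6.16% higher and 11.7% lower. A gene with an adjusted p below 0.1 but under the minimum fold change counts as not called. Of 10 RAS paralogs and activators, 1 rose and 1 fell with HGF in Detroit 562. RASGRF2, an exchange factor for RAS, rose by a log2 fold change of 2.12 (SE 0.280, edgeR adjusted p 0.000306) from a low level of 0.328 ± 0.139 to 1.44 ± 0.337 CPM. MRAS, a RAS-related GTPase, had a log2 fold change of -1.25 (SE 0.382, edgeR adjusted p 0.0260) and was not called without control replicate 1 (-1.08) or HGF replicate 3 (-1.01). The median of this list was -0.15, beside -0.01 for all tested genes.

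Of 9 RAS GTPase-activating proteins, which switch RAS off, 1 rose and 2 fell in Detroit 562. RASA3 rose from 8.33 ± 0.949 to 19.6 ± 7.36 CPM (log2 fold change 1.23, SE 0.242, edgeR adjusted p 0.00300). DAB2IP fell from 142 ± 26.3 to 86.6 ± 17.2 CPM (log2 fold change -0.72, SE 0.151, edgeR adjusted p 0.00413). RASAL1, at -0.60 (SE 0.208, edgeR adjusted p 0.0443), was not called without control replicate 1 (-0.56) or HGF replicate 3 (-0.49). None of 7 receptor adaptors and none of 7 genes for the lipid modification of RAS was called with all libraries, and the medians of these lists were 0.13 and 0.01. Some missed only the minimum fold change, at an edgeR adjusted p below 0.1. Among the adaptors these were GRB2, SHC1, PTPN11 and CRKL (higher) and GAB1 (lower). Among the lipid modification genes they were FNTA (higher) and FNTB and PDE6D (lower), all named after their values were seen. With single libraries left out, up to 2 adaptors were called (2 without control replicate 3, 1 without HGF replicate 1 or 3) and up to 1 lipid modification gene (without HGF replicate 1 or 2 or control replicate 3). Over all tested genes, 1586 to 3629 were called with single libraries of Detroit 562 left out, the most without control replicate 3.

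Of 12 scaffolds and RAF regulators, 1 fell in Detroit 562. This was KSR1, a scaffold that holds RAF, MEK and ERK together, which went from 11.3 ± 3.40 to 4.88 ± 1.77 CPM (log2 fold change -1.20, SE 0.274, edgeR adjusted p 0.00612). Of 8 kinases that ERK phosphorylates, 7 were tested and 1 was called, RPS6KA4, which codes for MSK2, at a log2 fold change of 0.42 (SE 0.0884, edgeR adjusted p 0.00421). With the block, RPS6KA5 was called as well, at -0.46, a gene named after its values were seen, which made 2 of 7. RPS6KA4 fell under the minimum fold change without control replicate 1 (0.35), HGF replicate 1 (0.37) or control replicate 2 (0.38). Of 13 MEK and MAPK genes of other cascades, MAPK8, which codes for JNK1, rose by 0.64 (SE 0.112, edgeR adjusted p 0.00177) and MAP2K6, a kinase for p38, had a log2 fold change of -1.21 (SE 0.357, edgeR adjusted p 0.0221).

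The ERK output list, genes known to be transcribed in response to ERK such as DUSP and SPRY feedback inhibitors, was the list with most calls. In Detroit 562, 7 of 10 rose and 0 fell, with a median log2 fold change of 1.06, and the blocked model also called 7, where 21.5% of all tested genes were called. SPRY4, a feedback inhibitor of the pathway, rose from 3.07 ± 1.41 to 11.8 ± 5.88 CPM (log2 fold change 1.95, SE 0.413, edgeR adjusted p 0.00433). PHLDA1 rose from 28.02 ± 13.9 to 82.3 ± 37.0 CPM (1.56, SE 0.391, edgeR adjusted p 0.00984), and DUSP6, a phosphatase of ERK, from 5.69 ± 0.279 to 16.4 ± 2.91 CPM (1.53, SE 0.196, edgeR adjusted p 0.000247).

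In FaDu, the same list had 1 of 10 called, DUSP6 (1.44, SE 0.187, edgeR adjusted p 0.0115), at a median of 0.79, and in SCC-9 0 of 10 at a median of 0.49. With the block, 8 of 10 were called in FaDu, where 5.6% of all tested genes were, and 6 of 10 in SCC-9, where 1.97% were, all higher. Of the remaining lists, 0 genes were called in FaDu or SCC-9 without the block. With the block, 1 gene each of the adaptors, GTPase-activating proteins, scaffolds and other MEK and MAPK genes was called in FaDu, all lower (GAB2, DAB2IP, KSR1 and MAP2K6, the first named here after its values were seen), and none in SCC-9. The medians of these 7 lists lay between -0.05 and 0.11 in FaDu, while in SCC-9 they lay between -0.03 and 0.04.

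**Figure D5:**
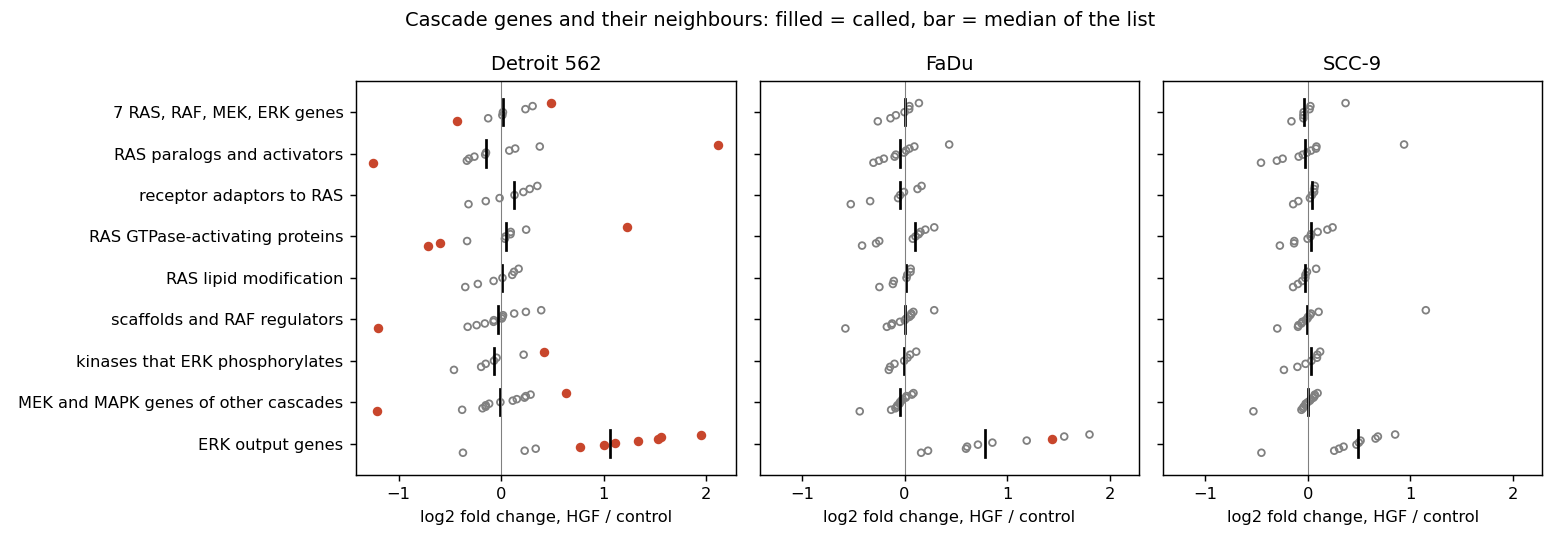
Log2 fold change of HGF over control (horizontal axis) for the 7 cascade genes and for each gene of 8 lists in the 3 lines, with called genes filled and the median of each list as a bar. The ERK output genes have medians of 1.06, 0.79 and 0.49, while EPHA4 of this list lies at -0.37 in Detroit 562 and -0.45 in SCC-9, and the medians of the cascade genes are 0.02, 0.00 and -0.04.

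Genes whose pattern was most like a cascade gene were found by Pearson's r of log2 CPM over 18 libraries, among 11348 genes with a mean of at least 5 CPM. These values describe libraries that share lines and replicate numbers, and carry no test. PTPN1, which codes for the phosphatase PTP1B, was most like MAP2K1 over all libraries (r 0.946) and after the mean of each line was subtracted (r 0.957), followed in the latter by MCFD2 (r 0.955). For MAPK3, RHBDL2 (r 0.988) and RXRA (r 0.986) led over all libraries, and MVK, an enzyme of the mevalonate pathway (r 0.983), and SNCG (r 0.982) within lines.

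For NRAS, ACTR2 and TMEM209 (each r 0.988) led over all libraries and UBE2D3 (r 0.987) and CAPZA1 (r 0.980) within lines. For HRAS, the genes were ANKRD16 (r 0.984) and C19orf47 (r 0.968), and within lines CTDNEP1 (r 0.939) and PRCC (r 0.937). For ARAF they were C6orf132 (r 0.931) and PHLDA3 (r 0.926), and within lines ZSWIM1 (r 0.901) and CLN3 (r 0.871). For BRAF they were NCOR1 (r 0.986) and SLC5A3 (r 0.982), and within lines FNIP1 (r 0.835) and ZNF81 (r 0.818). For MAP2K2 they were BCKDK (r 0.972) and PCBD1 (r 0.964), and within lines GNB2 (r 0.926) and POLR2E (r 0.912). Among the cascade genes themselves, NRAS and MAPK3 ran most oppositely within lines (r -0.797), followed by MAP2K1 and MAPK3 (r -0.702), and ARAF and MAPK3 ran most alike (r 0.652).

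The opposite course of NRAS and MAPK3 also showed in the replicate numbers. NRAS replicate 3 lay above its group mean in 6 of 6 groups, by a median of 0.13 on the log2 scale, and replicate 2 lay below it in 6 of 6, at a median of -0.14. MAPK3 replicate 2 lay above its group mean in 6 of 6 groups, by a median of 0.07, and replicate 3 lay below it in 4 of 6, at a median of -0.19. What the replicate numbers stand for is not given in the labels, and the study's methods state only that the experiment was repeated. The part of the numbers in the spread was not tested beyond the blocked model.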

How the data were processed

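mRNA was sequenced in 18 libraries, 3 control and 3 HGF libraries for each of Detroit 562, FaDu and SCC-9. The deposited values are raw counts of reads per gene, whole numbers without normalization. The authors made stranded libraries, trimmed reads with cutadapt, aligned them with STAR 2.5.2b to GRCh38.p12 with GENCODE 28, and counted reads on the strand of each gene's extent with bedtools. Introns were thus included in the counted extent, and a read in overlapping genes of 1 strand counted for each.

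The counts were analyzed in R 4.3.3 with edgeR 4.0.16. Of 19901 genes, 15475 passed filterByExpr on the 6 groups. After TMM scaling, 1 quasi-likelihood model with 6 group means took in all libraries. It gave the effect of HGF in each line, the differences of these effects, and the differences of untreated lines. Calls needed a Benjamini-Hochberg adjusted p under 0.1 with a log2 fold change beyond 0.4 in either direction, and interactions the adjusted p alone. Intervals are 95% intervals. Paralog ratios were tested with two-sided exact permutation tests (scipy 1.17.1). Promoter windows came from RefSeq. The fits were tested on simulated counts with known changes before use.

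Alternatives were a replicate block within lines, DESeq2 size factors or upper-quartile factors in edgeR, no filter, at least 50 counts in 3 libraries, DESeq2 1.42.0 with and without its fold change prior, the 6 libraries of a line alone, no minimum fold change, a stricter threshold, and each library left out. Same-numbered control and HGF libraries deviated together from their group means (correlations across genes of 0.445 to 0.738 in 9 pairs, against -0.673 to 0.382 in 18 pairs of different numbers), so the numbers were used to pair the libraries. The labels state no pairing. Deviations within a group of 3 add up to 0, so part of this contrast is built in. In Detroit 562, replicates 1 and 2 were hardly apart, at 0.473 and 0.445 for the same number and 0.382 and 0.263 for different numbers. Named genes were all 7 cascade genes, at most 3 called genes per list with the largest change in Detroit 562, and 2 genes of like pattern per measure. The 7 genes and the lists were chosen with earlier results of these data known. Other members of these families are not described here.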

Additional observations from a re-analysis of the deposited data

Results flagged for a closer look

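With the replicate number as a block, 4 differences between lines in the response to HGF were called that were not called without it (edgeR's quasi-likelihood test, Benjamini-Hochberg adjustment). The block raised the calls over the whole table too, to 19.1% of all tested genes between Detroit 562 and FaDu, 26.9% between Detroit 562 and SCC-9 and 1.32% between FaDu and SCC-9, and the cascade genes called were 1, 2 and 1 of 7. The MAP2K1 response was larger in Detroit 562 than in FaDu by 0.45 on the log2 scale (edgeR adjusted p 0.00209, range over 19 alternatives 0.00209 to 0.581), and all 3 pairs of Detroit 562 exceeded all 3 of FaDu. The MAP2K1 response differed between FaDu and SCC-9 by -0.32 (edgeR adjusted p 0.0647, range 0.0647 to 1.0), again with no overlap of the pairs. The NRAS response was larger in Detroit 562 than in SCC-9 by 0.28 (edgeR adjusted p 0.0155, range 0.0155 to 0.905). The MAPK3 response differed between Detroit 562 and SCC-9 by -0.28 (edgeR adjusted p 0.0136, range 0.0136 to 0.753).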

How the results depend on the processing

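The replicate block treats same-numbered libraries of a line as pairs. With it, the count of cascade genes whose response differed went from 0 to 1 between Detroit 562 and FaDu. This count went to 2 between Detroit 562 and SCC-9 and to 1 between FaDu and SCC-9, and the block changed no other call of a cascade gene. DESeq2 with and without its prior also gave 1 between Detroit 562 and FaDu. At the stricter threshold (adjusted p under 0.05, log2 fold change of 1 or more), the count called with HGF in Detroit 562 was 0, and the counts between untreated lines were 1 (Detroit 562 and FaDu), 0 (Detroit 562 and SCC-9) and 1 (FaDu and SCC-9). With no minimum fold change, the counts for untreated Detroit 562 against untreated FaDu and against untreated SCC-9 were 7 and 7. The shares of all tested genes under these thresholds are not given here. In edgeR's main model, 11474 and 12005 of all 15475 tested genes had an unadjusted p below 0.05 in the same comparisons. Counts of 7 therefore do not separate the cascade from the rest of the table. With single libraries left out, the count in Detroit 562 ran from 1 to 3 and the count for Detroit 562 against FaDu in the response from 0 to 1. NRAS was called in Detroit 562 without HGF replicate 1 (0.43) or control replicate 3 (0.45), and MAP2K1 differed in response between Detroit 562 and FaDu without control replicate 3 of Detroit 562 (0.55, edgeR adjusted p 0.0351). Over all tested genes, these fits called 1586 to 3629 genes with HGF in Detroit 562, and 4 to 450 in the response against FaDu. Both counts were highest without control replicate 3 of Detroit 562, and with all libraries they were 2766 and 37.

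Upper-quartile factors gave -0.00708 for BRAF and -0.000235 for MAP2K2 in Detroit 562 and -0.00802 for HRAS in FaDu. With single libraries left out, the log2 fold change ran from -0.0165 to 0.0556 for BRAF and -0.0673 to 0.0969 for MAP2K2 in Detroit 562, from -0.0830 to 0.0581 for HRAS and -0.0431 to 0.148 for BRAF in FaDu, from -0.000403 to 0.0484 for HRAS and -0.0514 to 0.102 for NRAS in SCC-9, and from -0.0787 to 0.00579 for ARAF between untreated FaDu and SCC-9. The HRAS to NRAS ratio ran from -0.297 to 0.228 in Detroit 562 and -0.0592 to 0.0602 in SCC-9, and ARAF to BRAF from -0.0478 to 0.0577 in SCC-9. The cause of these changes was not tested. With 3 libraries a group the exact tests cannot go below a p of 0.1, and no cascade gene had fewer than 553 counts in a library.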
